A study of Mus musculus with 6 samples.

Results

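The C/EBP family of transcription factors was followed in CAD cells, a catecholaminergic mouse cell line of CNS origin. The members were the genes Cebpa, Cebpb, Cebpd and Cebpg, taken by symbol, which are 4 of the 55536 genes counted. The study compared mRNA libraries of proliferating cells with libraries of cells differentiated by dexamethasone, a synthetic glucocorticoid, to describe the differentiated state. Undifferentiated cells (3 libraries) grew with 8% serum, and differentiated cells (3 libraries) received 100 µM dexamethasone in medium with 1% serum over 5 days. Steroid, serum, the 5 days of treatment and growth state therefore differed together. The part of each in any difference below cannot be told apart. All cells were of this single male C57BL/6 x DBA/2 line transformed by simian virus 40. Samples within a group are labelled independent, but separate cultures are not stated, and the spread behind each p-value may therefore be technical.

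C/EBP proteins bind DNA as dimers, joined by a leucine zipper beside a basic DNA-binding region, and they pair with each other and with other bZIP factors. In the differentiation of fat cells, glucocorticoid and cyclic AMP induce C/EBPβ and C/EBPδ first, and these in turn induce C/EBPα, which is also known to slow cell division. C/EBPγ lacks a strong activation domain and acts mostly through its partners, ATF4 among them. In neurons, C/EBPβ and C/EBPδ are known as factors that respond to cyclic AMP and to inflammatory signals.

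Levels are given as CPM, the reads of a gene scaled to library size with TMM factors. Cebpb was 5.30-fold higher in dexamethasone-differentiated cells, Cebpd 2.53-fold and Cebpg 2.24-fold. Cebpa was not detected in either state. Of the 4 members, 3 had enough reads for the test, and edgeR's quasi-likelihood test called all 3 of these higher, with a call set at an adjusted p (Benjamini-Hochberg, over 12664 genes) under 0.05. In the same comparison 78.9% of all tested genes were called in either direction and 40.3% were called higher, so a called rise was common. A called rise of at least 2-fold, which all 3 members had, was found in 17.8% of tested genes. The 3 tested members had at least 11 reads in every library, so none of them entered the test through the differentiated libraries alone.

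**Figure D1:**
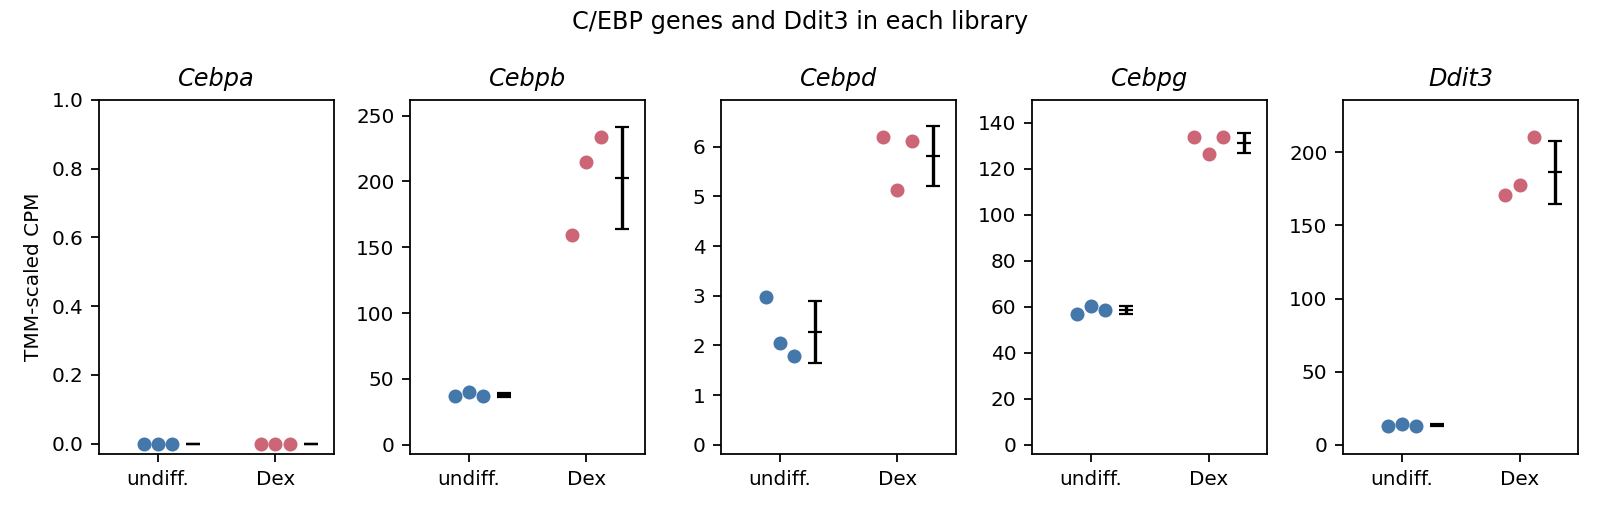
TMM-scaled CPM of each C/EBP gene and of Ddit3, which encodes the C/EBP-related factor CHOP, in the 3 undifferentiated (blue) and 3 dexamethasone (Dex, red) libraries. Bars give the mean ± SD (n = 3), and each panel has its own linear axis. The groups do not overlap for Cebpb, Cebpd, Cebpg or Ddit3, and Cebpa stays at 0 in all 6 libraries.

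Cebpb, which encodes C/EBPβ (ENSMUSG00000056501, chromosome 2, 167688915 to 167690418, plus strand, GRCm38), is a gene of 1 exon. It had 263, 312 and 227 reads in undifferentiated replicates 1, 2 and 3, or 37.2, 39.8 and 36.8 CPM. In dexamethasone replicates 1, 2 and 3 it had 1437, 1968 and 1571 reads, or 159, 215 and 234 CPM. Every differentiated library lay far above every undifferentiated library, and dexamethasone replicate 1 was the lowest of its group. The groups of a gene did not overlap in this direction for 41.0% of tested genes, and in the opposite direction for 38.9%. The means were 37.9 ± 1.6 and 203 ± 38.8 CPM (SD, n = 3), and edgeR gave a log2 fold change of 2.41 ± 0.10 (SE) at an adjusted p of 4.71e-18. A larger rise was measured in 4.45% of tested genes.

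The differentiated libraries differed more in Cebpb than in most genes of its level. Its coefficient of variation was 19.2% among them, above that of 99.8% of the 2023 tested genes within 2-fold of its CPM, whose median was 4.11%. In undifferentiated libraries the coefficient was 4.22%, below the median of 6.11% for genes of like level. Dexamethasone replicate 1 also stood apart over all genes: the counts of dexamethasone replicates 2 and 3 differed with a chi-square of 1.65 per degree of freedom, and those of replicate 1 differed from both with 3.18 and 3.19. Its part in the spread of Cebpb was not tested, and without it the log2 fold change was 2.56 (edgeR adjusted p = 3.78e-28). With edgeR's robust setting and all libraries, Cebpb kept a log2 fold change of 2.41, but its adjusted p was only 0.00013.

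Cebpd, which encodes C/EBPδ (ENSMUSG00000071637, chromosome 16, 15887286 to 15891031, plus strand), was counted at a low level. Undifferentiated replicates 1, 2 and 3 had 21, 16 and 11 reads, or 2.97, 2.04 and 1.79 CPM. Dexamethasone replicates 1, 2 and 3 had 56, 47 and 41 reads, or 6.20, 5.12 and 6.11 CPM. The groups did not overlap, and the lowest differentiated library lay above the highest undifferentiated one. The means were 2.26 ± 0.622 and 5.81 ± 0.596 CPM (SD, n = 3), and edgeR gave a log2 fold change of 1.34 ± 0.24 (SE) at an adjusted p of 1.66e-05. With 48 and 144 reads over the groups, its fold is the least precise of the family.

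Cebpg, which encodes C/EBPγ (ENSMUSG00000056216, chromosome 7, 35046422 to 35056573, minus strand), varied least between replicates. It had 403, 474 and 360 reads, or 57.0, 60.4 and 58.4 CPM, in undifferentiated replicates 1, 2 and 3. In dexamethasone replicates 1, 2 and 3 it had 1206, 1158 and 899 reads, or 134, 126 and 134 CPM. These groups were tight and far apart. The means were 58.6 ± 1.74 and 131 ± 4.32 CPM (SD, n = 3), and edgeR gave a log2 fold change of 1.16 ± 0.06 (SE) at an adjusted p of 6.47e-16.

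Cebpa, which encodes C/EBPα (ENSMUSG00000034957, chromosome 7, 35119293 to 35121928, plus strand), had no read in any library. At a floor of 3 reads over a group, its level was at most 0.142 CPM in undifferentiated and 0.120 CPM in differentiated cells, which covers counting error only. Its exons share 51 bases with Gm45091, an antisense gene, which also had no read, and no gene of the same strand overlaps it. Its longest transcript holds 62.6% G and C, between 43.3% for Cebpg and 67.2% for Cebpb, both of which were counted. Whether Cebpa was not expressed or its reads were lost before counting was not tested. Cebpe, the family member known from granulocytes, likewise had no read.

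**Figure D2:**
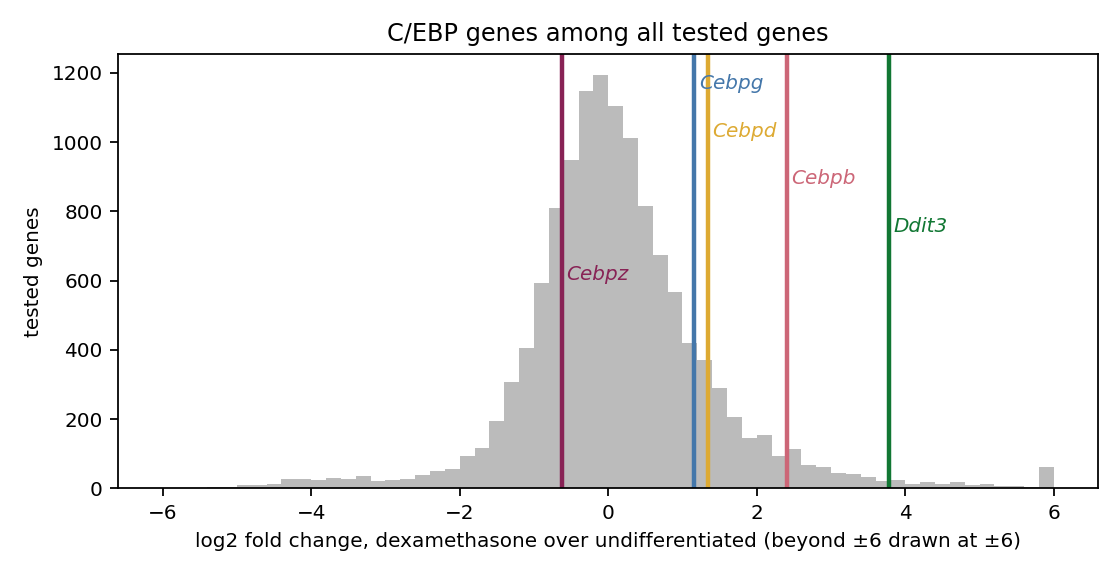
Histogram of the log2 fold change (dexamethasone over undifferentiated) of the 12664 tested genes, with vertical lines at Cebpg, Cebpd, Cebpb and the relatives Ddit3 and Cebpz. The 3 tested members lie to the right of the bulk of genes at 1.16, 1.34 and 2.41, Ddit3 lies farther out at 3.78, and Cebpz lies left of 0.

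The regulatory sequence in front of the genes is shown because the 3 detected members were higher together while Cebpa had no read. RefSeq promoters (GRCm38.p6) were at hand for Cebpa, Cebpb and Cebpg. The 250 bases before the start are printed 5′ to 3′ on the strand of the gene, for Cebpa chr7:35119043-35119292, for Cebpb chr2:167688665-167688914 and for Cebpg, on the minus strand, chr7:35056567-35056816. Capitals mark the motif letters that were found.
Cebpa promoter: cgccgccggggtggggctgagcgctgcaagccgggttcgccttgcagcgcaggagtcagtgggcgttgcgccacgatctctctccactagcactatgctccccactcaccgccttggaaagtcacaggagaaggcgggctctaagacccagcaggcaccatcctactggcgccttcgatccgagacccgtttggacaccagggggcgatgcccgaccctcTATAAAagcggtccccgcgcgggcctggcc
Cebpb promoter: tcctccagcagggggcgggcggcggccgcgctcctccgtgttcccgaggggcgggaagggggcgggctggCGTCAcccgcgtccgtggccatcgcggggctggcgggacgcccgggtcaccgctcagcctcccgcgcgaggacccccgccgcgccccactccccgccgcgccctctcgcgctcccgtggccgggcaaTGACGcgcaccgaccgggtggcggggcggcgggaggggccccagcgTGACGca
Cebpg promoter: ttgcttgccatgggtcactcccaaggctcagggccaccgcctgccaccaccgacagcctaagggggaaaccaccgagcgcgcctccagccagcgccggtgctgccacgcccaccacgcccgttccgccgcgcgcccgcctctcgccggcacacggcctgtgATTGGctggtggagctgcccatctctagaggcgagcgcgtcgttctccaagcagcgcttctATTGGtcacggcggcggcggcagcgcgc

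Motifs were searched on both strands of 300 bases, the printed ones and 50 after the start, and no matched motif overlapped another. The Cebpb window holds TGACG, the core of the cyclic AMP response element, at 3 places, which end 176, 49 and 3 bases before the start, the first of them on the opposite strand. TGACG occurs, at any number of places, in 21.0% of the 27025 genes' promoters searched the same way. How many of these hold it at 3 places was not counted. The Cebpb window also holds TATAAA, 22 bases after the annotated start, and the Cebpa window holds it 30 bases before the start, as do 14.2% of promoters at any position. The Cebpg window holds CCAAT on the opposite strand at 2 places, ending 85 and 24 bases before the start. This motif is found, at any number of places, in 37.9% of promoters. None of the 3 windows holds the C/EBP site TTNNGCAA (10.8% of promoters), the C/EBP-ATF composite TGATGNAA (4.06%) or the glucocorticoid response element, GNACA and TGTNC with NNN between (0.463%). The 250 bases of Cebpb hold 81.6% G and C, those of Cebpg 70.8% and those of Cebpa 66.4%, against a median of 52.0% over all promoters. A match describes the letters only, and no binding was measured here.

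**Figure D3:**
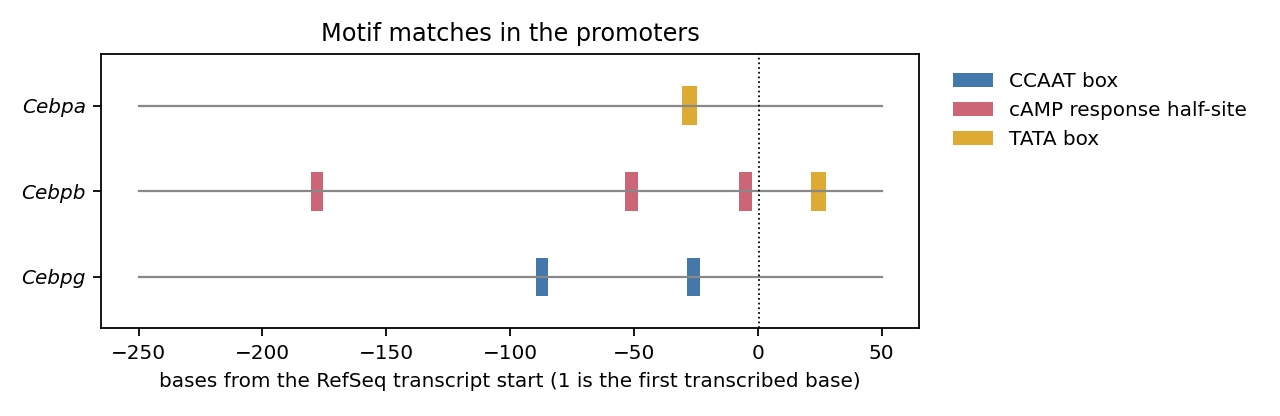
Positions of motif matches in the promoters of Cebpa, Cebpb and Cebpg, in bases from the RefSeq transcript start (dotted line), for the cAMP response half-site, the CCAAT box and the TATA box. Cebpb has 3 half-sites and a TATA box, Cebpa a TATA box and Cebpg 2 CCAAT boxes.

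Cebpa and Cebpg lie 62719 bases apart on chromosome 7. Cebpg was higher and Cebpa had no read, and Slc7a10, the protein-coding gene on the far side of Cebpa, had none either. Pepd, a peptidase gene that ends 1713 bases from Cebpg, was lower in differentiated cells, with 59.4 ± 3.66 and 28.4 ± 1.86 CPM (SD, n = 3; edgeR adjusted p = 1.58e-12). Next to Cebpb, Tmem189 was lower at 49.3 ± 2.46 and 35.0 ± 4.24 CPM (SD, n = 3; edgeR adjusted p = 6.43e-06), and on the other side the phosphatase gene Ptpn1 was lower at 67.2 ± 1.97 and 52.3 ± 2.61 CPM. Next to Cebpd, Spidr, a gene of DNA repair, was lower at 40.4 ± 3.01 and 21.2 ± 1.62 CPM (SD, n = 3; edgeR adjusted p = 5.6e-10), and Mzt2 was at 14.3 ± 1.49 and 14.7 ± 2.16 CPM (edgeR adjusted p = 0.79). Tmem189 covers 20.7% of the exon bases of Cebpb and Spidr 15.0% of those of Cebpd, in each case on the opposite strand. The authors counted by strand, and the part of these overlaps in the C/EBP counts was not tested.

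Levels of different genes were compared per kilobase of exon, as CPM per kilobase. Undifferentiated cells had 25.2 ± 1.06 for Cebpb, 10.4 ± 0.309 for Cebpg and 0.604 ± 0.166 for Cebpd (SD, n = 3). Differentiated cells had 135 ± 25.8 for Cebpb, 23.3 ± 0.768 for Cebpg and 1.55 ± 0.159 for Cebpd. The order Cebpb, Cebpg, Cebpd was the same in all 6 libraries, and no neighbours in it overlapped. All libraries share the same lengths, however, 5621 exon bases for Cebpg and 1504 for Cebpb. Cebpg has 4 listed transcripts of 399 to 4709 bases, and which of them were present was not tested. A shorter length would raise its level, so the order of Cebpb and Cebpg is not settled. Cebpb moved from above 81.0% to above 97.9% of tested genes in level per kilobase, Cebpg from 60.5% to 81.8% and Cebpd from 9.03% to 15.6%. The summed level of the family went from 36.2 ± 1.29 to 159.6 ± 25.6 CPM per kilobase (SD, n = 3), 4.40-fold.

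The make-up of the family shifted towards Cebpb. Its share of the summed level was 69.3%, 70.1% and 69.3% in undifferentiated replicates 1, 2 and 3, and 80.6%, 85.7% and 85.9% in dexamethasone replicates 1, 2 and 3. Every differentiated library lay above every undifferentiated one, a difference in means of 14.5 percentage points. The share of Cebpg went from 28.8% ± 0.539 to 14.9% ± 2.77 (SD, n = 3), although its own level was higher. Cebpd held 1.67% ± 0.480 and 0.995% ± 0.235. Each of these shifts had an exact two-sided permutation p of 0.1 (0.1 also when adjusted over the 3 shares), which is the smallest that 3 libraries against 3 can give. The share of Cebpb depends on the lengths used and on which genes are counted. With the longest transcript of each gene, its difference in means was 15.8 percentage points, and shorter transcripts were not tried. With Ddit3 and Cebpe added, on exon lengths, the share of Cebpb fell from 57.2% ± 0.122 to 49.9% ± 3.64. Ddit3 went from 17.8% ± 0.385 to 40.7% ± 2.39.

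**Figure D4:**
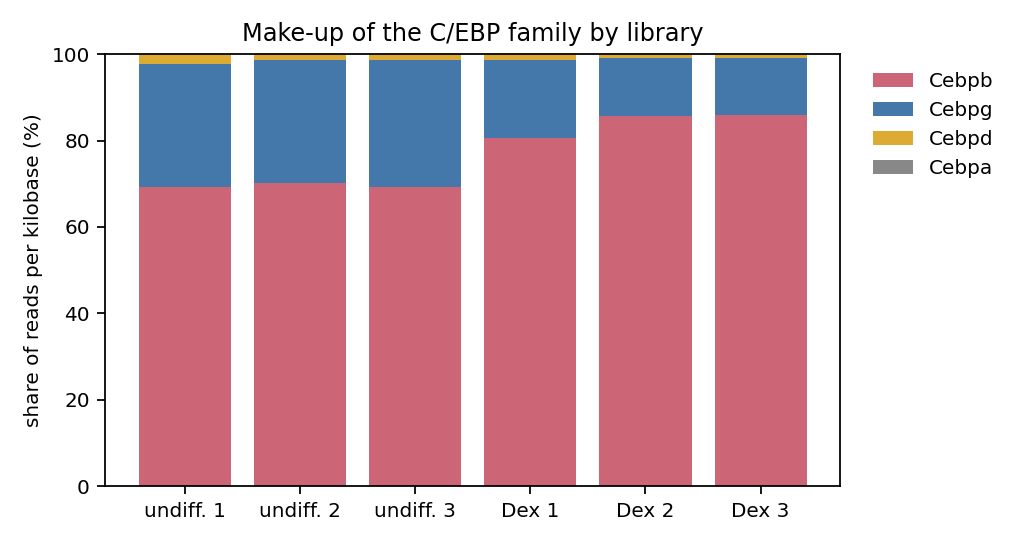
Share of each member in the summed reads per kilobase of the 4 C/EBP genes, in percent, for each of the 6 libraries. Cebpb takes about 70% of each undifferentiated bar and 80.6% to 85.9% of each dexamethasone bar, Cebpg shrinks, and Cebpa has no share.

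The members' changes were compared directly through the log2 ratio of their reads within each library. Of 6 pairs, the 3 with Cebpa have no ratio. The ratio of Cebpb to Cebpg went from -0.62 ± 0.032 to 0.61 ± 0.31 (SD, n = 3), so Cebpb gained 2.35-fold on Cebpg. The ratio of Cebpb to Cebpd went from 3.93 ± 0.35 to 5.05 ± 0.37, a gain of 2.18-fold. Neither pair overlapped between groups, and each had an exact two-sided permutation p of 0.1, the smallest possible, or 0.15 adjusted over 3 pairs. The ratio of Cebpd to Cebpg was -4.55 ± 0.36 and -4.44 ± 0.10 (exact two-sided permutation p = 0.8). Its groups overlapped, and its difference of 0.11 rested on single libraries. Without undifferentiated replicate 1 it was 0.32, with groups that no longer overlapped (exact two-sided permutation p = 0.1, the smallest possible). Without undifferentiated replicate 3 it was -0.013, and without undifferentiated replicate 2 it was 0.024.

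Among the genes related to the family, Ddit3 changed most. It encodes CHOP, a C/EBP-like stress factor that pairs with C/EBP proteins (ENSMUSG00000025408, chromosome 10, 127290774 to 127296288). It had 13.1, 14.4 and 12.8 CPM in undifferentiated replicates 1, 2 and 3 and 171, 177 and 211 CPM in dexamethasone replicates 1, 2 and 3. The groups lay far apart, with a 13.7-fold rise, and edgeR gave a log2 fold change of 3.78 ± 0.09 (SE) at an adjusted p of 2.36e-23. As with Cebpb, the differentiated libraries differed more in Ddit3 than in most genes of its level. The coefficient of variation was 11.5%, above that of 97.6% of 2222 such genes, whose median was 4.20%. Per kilobase of its 1713 exon bases, Ddit3 went from 7.86 ± 0.487 to 109 ± 12.5 CPM (SD, n = 3), beside 135 ± 25.8 for Cebpb in differentiated cells. The listed transcripts of this gene hold only 600 to 969 bases. A transcript length would give Ddit3 a higher level, so its place relative to Cebpg and Cebpb is not settled. Cebpz, a CCAAT-binding protein gene that carries the family's name without the zipper, fell from 168 ± 11.1 to 109 ± 6.51 CPM (SD, n = 3; edgeR adjusted p = 2.71e-10). On the list of 8 relatives, 7 were tested, 4 rose and 1 fell, with a median log2 fold change of 0.46. The same median over all tested genes was 0.02, with 40.3% higher and 38.6% lower, and the counts of each list below stand beside these shares. Nfil3, a bZIP repressor, rose from 21.5 ± 0.744 to 48.6 ± 0.277 CPM (SD, n = 3).

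Other bZIP genes whose products can pair with C/EBP proteins moved in both directions. Of 8 tested of 13 listed, 6 rose and 2 fell (median 0.96; all tested genes 40.3% and 38.6%). Atf5, an activator of the ATF4 group, rose 10.4-fold, from 15.0 ± 1.01 to 156 ± 3.98 CPM (SD, n = 3; edgeR adjusted p = 5.03e-24). Fosl2, a FOS relative, rose 2.89-fold. Atf4 itself, the partner of C/EBPγ, rose from 533 ± 32.1 to 1084 ± 15.8 CPM (SD, n = 3), 2.03-fold. Fos, an immediate early gene, fell from 30.3 ± 2.72 to 5.94 ± 0.899 CPM, and Junb from 223 ± 7.67 to 105 ± 12.2 CPM (SD, n = 3). Fosl1, a further FOS relative on the list, had no read.

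Genes of the signals known to induce C/EBP genes moved in both directions. Of 19 tested of 21 listed, 13 rose and 5 fell (median 0.48), or 12 and 5 of the 18 that did not reach the test through the differentiated libraries alone. With a GC offset, 11 rose and 6 fell (median 0.28), beside 40.3% and 38.6% of all tested genes. Il6st, the signalling receptor chain gp130, rose from 61.0 ± 5.38 to 142 ± 1.85 CPM (SD, n = 3; edgeR adjusted p = 5.1e-16). Prkacb, a catalytic subunit of the cyclic AMP-dependent kinase, rose 1.97-fold, while the other catalytic subunit Prkaca fell from 225 ± 4.97 to 182 ± 5.87 CPM. Nfkb1 fell from 37.3 ± 2.52 to 22.9 ± 0.880 CPM (SD, n = 3). Stat3, which acts under gp130 on Cebpd in other tissues, rose from 79.0 ± 2.66 to 147 ± 3.74 CPM. The receptor for dexamethasone, Nr3c1, was at 50.6 ± 5.89 and 37.9 ± 2.28 CPM and fell (edgeR adjusted p = 9.85e-05). Il6ra had 1 read over the undifferentiated and 128 over the differentiated libraries, a ratio of 108 with a 95% counting interval of 19.1 to 4310.

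Of 18 tested regulators of C/EBP protein, 7 were higher and 6 lower with a median of 0.02, which is close to the 40.3%, 38.6% and 0.02 of all tested genes. That median was -0.015 without undifferentiated replicate 3 and -0.058 with a GC offset. Trib3, a pseudokinase induced by stress, rose from 30.2 ± 3.12 to 251 ± 15.9 CPM (SD, n = 3; edgeR adjusted p = 1.19e-23), or 8.26-fold. Mapk3, the kinase ERK1, which phosphorylates C/EBPβ, rose 2.78-fold. Ccnd3, cyclin D3, fell from 82.2 ± 2.98 to 45.1 ± 1.01 CPM. Among coregulators 8 of 13 tested genes fell and 1 rose (median -0.32), with 7 lower and 2 higher when libraries were scaled by totals, and 2 higher without dexamethasone replicate 3. Over all tested genes 38.6% fell and 40.3% rose. Smarca2, an ATPase of the SWI/SNF remodelling complex, rose from 24.8 ± 1.14 to 46.8 ± 1.68 CPM, and the alternative ATPase Smarca4 fell from 282 ± 5.91 to 158 ± 1.97 CPM (SD, n = 3). Hdac1, a histone deacetylase, fell from 195 ± 7.75 to 104 ± 5.52 CPM.

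**Figure D5:**
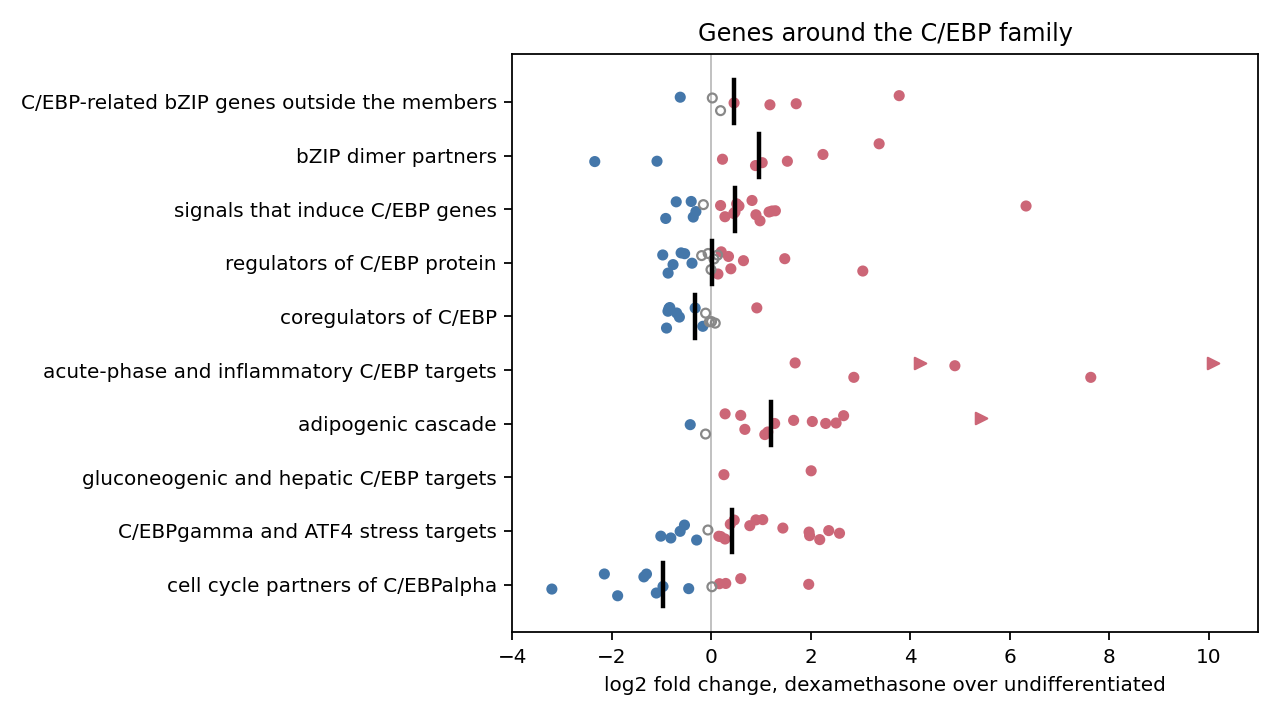
Log2 fold change (dexamethasone over undifferentiated) of the tested genes on each list around the C/EBP family. Red and blue points were called higher and lower, open points were not called, black bars are medians (none drawn for the acute-phase and hepatic lists), and triangles are lower bounds for genes with no undifferentiated read. The coregulator and cell cycle medians lie below 0, at -0.32 and -0.97.

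Most listed genes that C/EBP proteins are known to activate in inflammation had few or no reads in both states. Of 24 listed, 18 were not tested, of which 11 had no read in any library, and 6 were tested. All 6 were called higher, but 5 of these had under 10 reads in every undifferentiated library and so reached the test through the differentiated libraries, which leaves their count without weight. Lcn2, the secreted acute-phase protein lipocalin 2, had no read in undifferentiated libraries and 151, 164 and 150.4 CPM in dexamethasone replicates 1, 2 and 3, which is at least 1094-fold higher if the silent group is set to 3 reads in total. Cp, ceruloplasmin, had 2 and 548 reads over the groups, a ratio of 232 with a 95% counting interval of 63.9 to 1919. Orm1, orosomucoid, was at least 18.3-fold higher on the same basis, with 65 reads in differentiated cells. Il6, a cytokine gene with a C/EBP site in its promoter, went from 0.648 ± 0.215 to 4.95 ± 0.257 CPM (SD, n = 3), and the chemokine gene Cxcl1, the only tested gene of the list to reach 10 reads in an undifferentiated library, rose 3.22-fold. Among serum amyloid genes, Saa1 and Saa2 had no read, while Saa3 had 1 and 47 reads over the groups, a ratio of 39.8 with a 95% counting interval of 6.80 to 1603.

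The adipogenic cascade, in which Cebpb and Cebpd act early, had 14 of 27 genes tested, and 12 rose and 1 fell (median 1.20), beside 40.3% and 38.6% of all tested genes. In the fits without undifferentiated replicate 3 or dexamethasone replicate 1, with protein-coding genes only, or with a GC offset, 2 fell. Without G0s2, which had no undifferentiated read, 11 of 13 rose. Plin2 and Scd1, genes of lipid storage and desaturation, rose 6.32-fold and 4.92-fold, and Zfp423, a factor of early fat cell commitment, fell from 70.2 ± 2.31 to 52.3 ± 2.28 CPM (SD, n = 3). Pparg, the nuclear receptor that acts with C/EBPα, went from 47.2 ± 2.99 to 57.4 ± 1.77 CPM, a small rise (log2 fold change 0.28 ± 0.072 SE, edgeR adjusted p = 0.00109). Of the 6 fat cell markers, Adipoq, Lep, Cidec and Cfd had between 0 and 1 read over all libraries. Plin1 had 1 read over the undifferentiated and 3, 7 and 6 reads in the dexamethasone libraries, and Fabp4 had none and 1, 3 and 2 reads, too few for the test. Of 17 gluconeogenic and hepatic targets 2 were tested: Pck2, mitochondrial phosphoenolpyruvate carboxykinase, rose 4.02-fold and G6pc3 1.19-fold, while the liver gene Pck1 had no read. With a GC offset only 1 of these 2 genes was called.

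Stress genes shared by C/EBPγ and ATF4 rose in 14 and fell in 5 of 20 cases (median 0.42), or 12 and 6 with a GC offset, beside 40.3% and 38.6% of all tested genes. Ddit4, an mTORC1 inhibitor, rose 4.53-fold and Slc7a11, the cystine transporter, 5.97-fold, from 25.2 ± 0.969 to 150.0 ± 10.5 CPM (SD, n = 3; edgeR adjusted p = 8.63e-22). Gclc, of glutathione synthesis, fell from 170.0 ± 4.77 to 84.2 ± 1.88 CPM, and Psat1, of serine synthesis, from 718 ± 28.1 to 408 ± 18.0 CPM. On the list of cell cycle proteins that C/EBPα is known to act with, 8 of 13 fell and 4 rose (median -0.97), beside 38.6% and 40.3% of all tested genes, in cells without a Cebpa read. With DESeq2 or a GC offset, or without undifferentiated replicate 2 or 3 or dexamethasone replicate 3, 8 fell and 3 rose. Cdk2 and E2f2 fell by 2.15 and 3.21 on the log2 scale, while Cdkn1a, the inhibitor p21, rose 3.89-fold and Rbl2, of the retinoblastoma family, 1.51-fold.

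The genes most like each member over the 6 libraries were found by the root mean square difference of log2 CPM deviations, a description without a test. Nearest to Cebpb was Ppp1r15a, a stress-induced phosphatase subunit also known as GADD34, at 0.068, with 33.8 CPM in undifferentiated and 186 CPM in differentiated cells. Suox, sulfite oxidase, and Cyp4f13 followed at 0.097 and 0.11. Nearest to Cebpg were Nfil3 at 0.033, the deubiquitinase gene Usp22 at 0.034 and the autophagy gene Atg12 at 0.041. Nearest to Cebpd were Zfp772 at 0.083, Sumf2 at 0.084 and Rhbdf2 at 0.093. All 9 were higher in differentiated cells, so the step between the groups is part of each likeness.

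Depth and cell identity bear on all of these values. The libraries held 6411105 to 8757992 counted reads. All 14 catecholaminergic and neuronal markers were tested, and 8 rose and 5 fell. Dbh, of noradrenaline synthesis, fell from 165 ± 3.07 to 12.5 ± 0.354 CPM, and Ddc, of dopamine synthesis, from 3.61 ± 0.187 to 0.466 ± 0.185 CPM (SD, n = 3). Th, the first enzyme of that pathway, rose 2.09-fold and Chgb, a granule protein, 9.73-fold. None of the 8 hepatocyte, 6 adipocyte, 8 myeloid and 5 astrocyte markers had enough reads to be tested, and their summed levels stayed at or below 1.88, 1.20, 0.565 and 1.64 CPM in every library. Alb, Elane, Mpo and Ptprc had no read. The 6 fibroblast markers summed to between 10.1 and 13.7 CPM in undifferentiated and between 18.3 and 20.3 CPM in differentiated cells. Of these, Dcn rose from 8.30 ± 1.5 to 17.6 ± 0.896 CPM, while Col1a1 was at 2.00 ± 0.544 and 1.27 ± 0.697 CPM (edgeR adjusted p = 0.0772), and Col1a2 and Lum, not tested, had lower means in differentiated cells. The part of these markers in the results was not tested. In these bulk libraries, a change in the number of cells that express a gene and a change in RNA per cell cannot be told apart.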

How the data were processed

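Sequencing of mRNA libraries gave 3 undifferentiated and 3 dexamethasone samples, grouped by title. The deposited values are raw counts per gene, not normalized. Per the file headers, they come from featureCounts 1.6.4 run on exons of Ensembl release 96 (GRCm38), with strand setting 1 and no option for reads that map to several places or overlap several genes. Per the submitters' processing notes, the tools were HISAT2 2.2.0, Trim Galore 0.6.4, DESeq2, FastQC 0.11.9 and Subread 1.6.4, on GRCm38.p6, with no roles given. All 55536 gene IDs were named from GENCODE M21, with the same start and end.

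Genes were kept by filterByExpr (minimum count 10, minimum total 15), which left 12664 genes with 99.8% of reads. Libraries were scaled by TMM and tested with edgeR 4.0.16 (glmQLFit, glmQLFTest, R 4.3.3), with group as the only term. The p-values were adjusted over all tested genes. Shares, and log2 ratios with a prior count of 2, were compared by exact permutation. The SE is the log2 fold change divided by the square root of F. TMM assumes that few genes change, while 78.9% were called, so changes are relative to the counted mRNA.

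Members and gene lists were chosen with earlier results of these data known. Named were the members, Cebpe, Ddit3, Cebpz, up to 2 called genes per list and direction with the smallest adjusted p and at least 1 CPM, the neighbouring protein-coding genes and the 3 most alike genes per member with at least 5 CPM. A gene that this rule picks is not reported here. Other genes were named after their values were seen. Likeness used log2 CPM with a prior count of 2. Promoters are from RefSeq, which held 3 of the 4 members. Alternatives were RLE, upper quartile and total scaling, other filters, DESeq2 1.42.0, limma voom (3.58.1), a robust fit, each library left out, a replicate block, gene subsets, transcript length and prior counts. A GC offset, with and without the block, and a family with Ddit3 and Cebpe were added after seeing the data.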

Additional observations from a re-analysis of the deposited data

How the results depend on the processing

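Cebpb, Cebpd and Cebpg stayed called higher under all 19 alternatives of the fit. The largest adjusted p of Cebpb was 0.00013, in edgeR's robust fit. Their log2 fold changes ranged from 2.23 to 2.56, 1.21 to 1.58 and 1.14 to 1.29. Leaving out single libraries gave 2.30 to 2.56, 1.21 to 1.58 and 1.14 to 1.19. Counts of called genes ranged from 4748 to 5802 higher and 4207 to 5246 lower. Library totals alone and upper quartile factors moved the median of all genes to 0.14 and 0.12, from 0.02, and gave Cebpb 2.53 and Cebpg 1.29 under totals. The share of Cebpb changed by -7.23 percentage points when Ddit3 and Cebpe were counted, where it had been 14.5, because Ddit3 took a larger part. The difference between Cebpd and Cebpg turned from 0.11 to -0.032 with a prior count of 5, and ranged from -0.013 to 0.32 with single libraries left out; at 0.32, without undifferentiated replicate 1, its groups did not overlap. Genes of the signal list rose in 11 to 15 cases over the alternatives, those of the stress list in 12 to 14, of the adipogenic list in 12 to 15 and of the hepatic list in 1 to 4, which is 4 without the filter. The remaining pair and share results kept their direction under each alternative run.

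The labels do not say that a replicate number marks a shared culture or day, so the numbers were not taken to pair the samples. Deviations of same-numbered libraries correlated at -0.095, 0.036 and -0.071, and those of differently numbered libraries at -0.041 to 0.105. Such small values from so few libraries cannot decide whether samples were paired. With a replicate block the log2 fold changes were 2.40, 1.34 and 1.16, and all 3 members stayed called. Depth limits Cebpd, with 11 to 56 reads a library, and Cebpa, for which 3 reads correspond to 0.327 to 0.487 CPM.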
